A study of Mus musculus with 12 samples.

Results

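The nuclear genes of the mitochondrial respiratory chain were followed in mouse lens cells (LCs) through the first day after a model of cataract surgery. They were taken by name, as every gene whose symbol starts with Nduf (series a, b, c, s or v with a number), Uqcr, Cox followed by 4 to 8, or Atp5, together with Sdha, Sdhb, Sdhc and Sdhd, and 9 pseudogene symbols were left out. This gave 84 of the 45859 genes in the tables. By known role, 7 were core subunits of complex I, 28 accessory subunits of complex I, 4 complex II, 8 complex III, 19 complex IV and 15 complex V, and 3 were relatives that are not subunits (Atp5s, Atp5sl and Ndufa4l2).

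The respiratory chain sits in the inner mitochondrial membrane, where complexes I and II take electrons from NADH and succinate, complex III passes them to cytochrome c, and complex IV hands them to oxygen. Complexes I, III and IV pump protons as they do so, and complex V, the ATP synthase, lets the protons return and makes ATP. Complexes I, III, IV and V combine subunits coded in the nucleus with a few coded by mitochondrial DNA, whereas all subunits of complex II are nuclear. In the lens, mitochondria are kept by the epithelium and the young fiber cells and are degraded, together with the other organelles, as fiber cells mature.

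The study asked what αVβ8 integrin does in the response of LCs to surgery, which in patients can end in posterior capsular opacification. In living adult mice of 2 months, the lens fiber cells were removed and the capsule was left with the LCs attached to it, and RNA was taken at once (0 h post cataract surgery, PCS) or 24 h PCS. WT mice were C57BL/6, and β8ITG-cKO mice, on a mixed C57BL/6 and 129S1/Sv background, carried floxed Itgb8 and the MLR10-Cre transgene, which is active in lens epithelium and fibers. Each of the 4 groups (WT 0 h, WT 24 h, β8ITG-cKO 0 h and β8ITG-cKO 24 h) had 3 libraries, every one a pool of capsules, so a p-value measures the spread between pools. All 12 libraries came from operated eyes, and genotype and strain background cannot be told apart.

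Values are FPKM, fragments per kilobase of transcript, scaled to the fragments mapped in the library, as the authors deposited them, and the division by transcript length allows levels of different genes to be compared. A library's values summed to between 446531 and 740140, the 10 highest genes held 36.0% to 49.6% of that, and the steps between low values gave relative depths of 0.873 to 1.09. Itgb8, the targeted gene, had 7.26, 10.8 and 8.42 FPKM in WT 0 h, 9.08, 8.38 and 9.58 FPKM in WT 24 h, 6.83, 4.58 and 7.31 FPKM in β8ITG-cKO 0 h, and 9.28, 11.8 and 10.3 FPKM in β8ITG-cKO 24 h. The genotypes overlapped in Itgb8 at both times (adjusted p = 0.209 at 0 h and 0.486 at 24 h, limma). Over time Itgb8 rose in β8ITG-cKO (log2 change of 0.68, SE 0.17, adjusted p = 0.0132) and changed by 0.04 in WT (adjusted p = 0.873). The difference between these changes, 0.64, did not pass (adjusted p = 0.131). Since the tables give 1 value for the whole gene while Cre removes a floxed part of it, this level did not check the labels. Groups are therefore named as labelled.

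Promoters of respiratory chain genes are known for motifs of NRF1, of ETS factors such as GABP, and of YY1, so the 300 bases around each transcription start (250 before and 50 after, RefSeq, GRCm38.p6) were searched on both strands. Promoters were found for 66 of the 84 genes. The NRF1 motif GCGCANGCGC was present in 17 of the 66 (25.8%) against 5.19% of the 27025 promoters in the table. The YY1 motif AAGATGGC was present in 9 (13.6%) against 3.19%, and the ETS motif CCGGAAGT in 5 (7.58%) against 4.31%. At least 1 of the 3 was found in 29 of the 66 (43.9%) against 11.7%. The motifs also differed in place: NRF1 matches lay upstream of the start in 13 genes, 10 to 191 bases away, whereas YY1 matches lay 22 to 38 bases past the start in 8 of 9 genes. These matches describe letters in a window and say nothing of binding in LCs. The 7 genes below held a match and also passed a test further on, and 30 bases around each match are shown with the motif in capitals:
Uqcrc1: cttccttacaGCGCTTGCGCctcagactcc
Ndufa6: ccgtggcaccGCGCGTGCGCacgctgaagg
Atp5k: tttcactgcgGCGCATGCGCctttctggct
Ndufa9: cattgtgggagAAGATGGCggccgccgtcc
Ndufc1: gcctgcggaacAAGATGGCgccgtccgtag
Ndufa3: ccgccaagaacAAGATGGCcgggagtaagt
Uqcrh: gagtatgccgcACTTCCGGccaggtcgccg
The first 3 sequences show NRF1, at chr9:108936643-108936672 (plus strand), chr15:82354249-82354278 (minus strand) and chr5:108434430-108434459 (minus strand). The next 3 show YY1, at chr6:126849097-126849126 (minus strand), chr3:51408915-51408944 (minus strand) and chr7:3617384-3617413 (plus strand). The last shows an ETS match, at chr4:116075063-116075092 (minus strand). The matches of Uqcrc1, Ndufa6 and Uqcrh fit their motif only when read on the opposite strand, while that of Atp5k reads the same on both strands. Of these genes, Uqcrc1 rose and Ndufa6 fell over time in β8ITG-cKO, both with an NRF1 match, and Ndufa9 rose in WT and Ndufc1 fell in β8ITG-cKO, both with a YY1 match. Each of these motifs thus occurred in genes called in opposite directions, for YY1 in different genotypes. In the 6 fits without 1 library, the Uqcrc1 call passed in 6, those of Ndufa6 and Ndufc1 in 2 each and that of Ndufa9 in 0.

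Most of the 84 genes were well expressed in every group. The mean over the 12 libraries was at least 5 FPKM for 74 of them, with a median of 33.2 FPKM. Cox6c, a small subunit of complex IV, had the highest mean, 281 FPKM, followed by Atp5h, a stalk subunit of the ATP synthase, at 239 FPKM, and Atp5j, its coupling factor, at 163 FPKM. The lowest were isoforms known from other tissues: Cox8c was listed at 0 in every library, and Cox7b2, a testis form, and Cox6a2, the heart and muscle form, had means of 0.00914 and 0.0319 FPKM. In complex I, the core subunits, which carry the flavin and the iron-sulfur clusters, had a median of 16.1 FPKM, and the accessory subunits, which surround that core, one of 35.5 FPKM. Transcript lengths differed in the same split, with a median of 977 bases for core and 627 bases for accessory genes, and the part of length in the difference was not tested. These lengths are medians over the protein-coding transcripts annotated for a gene, and need not be the lengths used for the FPKM.

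The summed FPKM of the 84 genes was 3714, 4118 and 3019 in WT 0 h, 4054, 4485 and 3150 in WT 24 h, 4123, 3636 and 3977 in β8ITG-cKO 0 h, and 3417, 3511 and 3857 in β8ITG-cKO 24 h. These sums overlapped between the times in both genotypes and between the genotypes at both times.  In RNA from whole capsules, fewer cells of a type and less RNA per cell cannot be told apart.

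**Figure D1:**
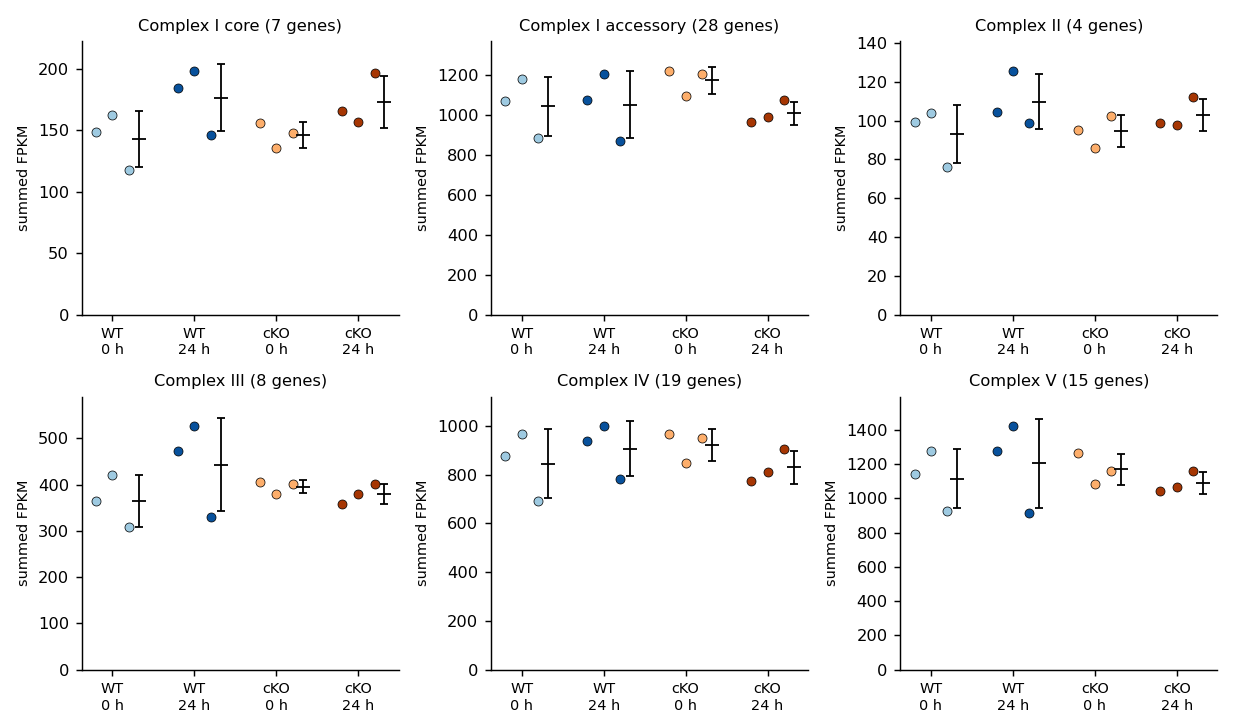
Summed FPKM (y axis) of the nuclear genes of each complex in the 4 groups (x axis). Points are libraries, bars are the mean ± SD of 3 libraries, and cKO stands for β8ITG-cKO. Complex I core sums were 143 ± 23.1 in WT 0 h and 176 ± 27.1 in WT 24 h, against 146 ± 10.5 and 173 ± 21.1 in β8ITG-cKO, while complex I accessory sums were 1044 ± 149 and 1051 ± 168 in WT and 1175 ± 67.8 and 1010 ± 58.6 in β8ITG-cKO.

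In WT LCs, 6 genes of the chain rose and 2 fell by 24 h PCS, out of 80 with a mean of at least 0.5 FPKM (adjusted p of at most 0.05, limma on log2(FPKM + 1)). Across all genes tested, 20.9% were higher and 8.81% lower, so the shares of these genes that rose (7.5%) and fell (2.5%) were below the background in both directions. The median log2 change was 0.18 over the 80 genes and 0.16 over all genes, and 55 of the 80 values were above 0. With the libraries rescaled to a common median the split became 1 higher and 9 lower and the members' median −0.08. In that setting 2199 of all 15249 genes were higher and 2447 lower. The split became 1 higher and 7 lower with a common median of the 84 genes, beside 2092 and 1833 of all 15260 genes. With every library at a sum of 1000000 it became 2 higher and 2 lower, beside 2671 and 1323 of all 17196 genes. The study also asked for a fold over 2, a mean of 2 FPKM or more in a group and means more than 2 FPKM apart, and with an adjusted p of at most 0.05 these criteria were met by 3 genes (Cox5a, Cox6b2 and Ndufa4l2), against 14.3% of all genes.

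Cox5a, a nuclear subunit of complex IV (chromosome 9, 57517328 to 57532427), rose most. It measured 13.6, 15.8 and 12.2 FPKM in WT 0 h and 27.1, 34.7 and 23.2 FPKM in WT 24 h. All libraries at 24 h were above all at 0 h, with a log2 change of 0.97 (SE 0.18, adjusted p = 0.00737), and the gene passed in all 6 fits that left out a library and with a common median (0.72). Cox5b, its partner subunit that binds zinc (chromosome 1, 36691487 to 36693388), measured 85.3, 121 and 80.5 FPKM in WT 0 h and 142, 168 and 138 FPKM in WT 24 h. The times did not overlap here either, and the log2 change was 0.66 (SE 0.19, adjusted p = 0.0371). In contrast, Cox4i1, the common form of the largest nuclear subunit of complex IV, had 95.7, 105 and 77.9 FPKM in WT 0 h and 86.5, 103 and 67.1 FPKM in WT 24 h, a log2 change of −0.13 (adjusted p = 0.653).

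The other rises in WT belonged to complexes I, III and V. Ndufs1, the largest core subunit of complex I (chromosome 1, 63143592 to 63176822), had 10.5, 9.99 and 8.83 FPKM in WT 0 h and 16.1, 17.0 and 12.2 FPKM in WT 24 h, a log2 change of 0.57 (SE 0.16, adjusted p = 0.0334). Uqcrc1, a core protein of complex III (chromosome 9, 108936648 to 108949641), had 29.7, 31.9 and 27.0 FPKM and then 42.8, 50.7 and 36.0 FPKM, a log2 change of 0.52 (SE 0.16, adjusted p = 0.0447). Both genes were higher in every library at 24 h. Atp5f1, a peripheral stalk subunit of the ATP synthase, changed by 0.55 (SE 0.17, adjusted p = 0.0474) and Ndufa9, an accessory subunit of complex I, by 0.45 (SE 0.13, adjusted p = 0.0393). These 4 calls and that of Cox5b were close to the threshold. Of the 6 fits without 1 library, Ndufa9 passed in 0, Ndufs1, Uqcrc1 and Atp5f1 in 1 each, and Cox5b in 2. With libraries at a common median none of the 5 passed.

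The genes that fell in WT were a tissue-restricted isoform and a relative. Ndufa4l2, a paralogue of the complex IV subunit Ndufa4 and known as a hypoxia-inducible gene (chromosome 10, 127509274 to 127517154), had 9.36, 6.17 and 6.95 FPKM in WT 0 h and 0.384, 0.203 and 1.53 FPKM in WT 24 h. The log2 change was −2.38 (SE 0.30, adjusted p = 0.00162), the largest of the set in either direction in this comparison. Cox6b2, the testis form of the Cox6b subunit, had 3.75, 3.48 and 3.75 FPKM and then 1.46, 1.41 and 1.45 FPKM, a log2 change of −0.93 (SE 0.14, adjusted p = 0.00355). For both genes the groups stood apart with no overlap, and both passed in every fit without 1 library.

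In β8ITG-cKO LCs the chain moved in both directions. Of 81 genes tested, 9 rose and 11 fell by 24 h PCS, that is 11.1% and 13.6%, against 35.4% of all genes higher and 10.7% lower. The share that rose was below the background and the share that fell was near it. The median log2 change was 0.01 over the members and 0.23 over all genes, with 42 values above 0 and 39 below. This split rests on the scale. With libraries at a common median it was 2 higher and 31 lower (members' median −0.27), beside 3217 and 3008 of all 15155 genes. At a common median of the 84 genes it was 4 higher and 19 lower, beside 4340 and 2086 of all 15204 genes. With every library summing to 1000000 it was 44 higher and 1 lower (members' median 0.35, all genes 0.52). In that setting 9481 of all 16920 genes were higher and 1013 lower, so the share of members that rose was near that of all genes. The study's criteria with an adjusted p of at most 0.05 were met by 2 genes, Ndufa1 and Cox4i2, against 15.1% of all genes. Without 1 library the number that passed was 6 (without β8ITG-cKO 24 h replicate 2) to 15, with 10 or 11 when any 1 of the β8ITG-cKO 0 h libraries was left out. In WT the same removal gave 3 without WT 0 h replicate 1 or WT 24 h replicate 1, 4 without WT 0 h replicate 3 or WT 24 h replicate 2, 5 without WT 0 h replicate 2 and 13 without WT 24 h replicate 3. The calls over all genes moved with these removals too. In WT 1817 were higher and 695 lower of 15127 without WT 0 h replicate 1, and 3737 and 1350 of 15130 without WT 24 h replicate 3. In β8ITG-cKO 4370 were higher and 1321 lower of 15116 without β8ITG-cKO 24 h replicate 2.

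Core subunits of complex I were among the genes that rose in β8ITG-cKO. Ndufv1, which holds the flavin that accepts electrons from NADH, had 14.0, 11.6 and 14.2 FPKM in β8ITG-cKO 0 h and 22.3, 18.6 and 24.5 FPKM in β8ITG-cKO 24 h, a log2 change of 0.67 (SE 0.13, adjusted p = 0.00418). Ndufs1 had 9.55, 7.95 and 10.5 FPKM and then 13.9, 12.1 and 15.2 FPKM, a log2 change of 0.51 (SE 0.13, adjusted p = 0.0143). In both genes every library at 24 h was above every library at 0 h. Ndufv2, the partner of Ndufv1, changed by 0.30 (SE 0.11, adjusted p = 0.0488), close to the threshold. Ndufs3, Ndufs7 and Ndufs8, further core subunits, had log2 changes of 0.10 to 0.17 in β8ITG-cKO and 0.27 to 0.35 in WT, and none of the 3 passed. All 7 core values were above 0 in both genotypes as deposited, but with libraries at a common median 6 were above 0 in WT and 3 in β8ITG-cKO.

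Uqcrc1 of complex III measured 28.7, 29.2 and 28.7 FPKM in β8ITG-cKO 0 h and 38.6, 40.8 and 45.4 FPKM in β8ITG-cKO 24 h. Its log2 change was 0.51 (SE 0.09, adjusted p = 0.00323), with no overlap, beside 0.52 in WT. Its partner core protein Uqcrc2 changed by 0.32 (adjusted p = 0.0783) and the Rieske iron-sulfur protein Uqcrfs1 by 0.26 (adjusted p = 0.131), and in WT by 0.12 and 0.21, with no pass. Cox5a had 18.6, 15.8 and 13.9 FPKM and then 19.2, 23.4 and 21.0 FPKM in β8ITG-cKO, a log2 change of 0.38 (SE 0.13, adjusted p = 0.0431), and Cox5b one of 0.34 (SE 0.13, adjusted p = 0.0703). The remaining rises were in Ndufb6 (0.56) and Ndufa10 (0.36), accessory subunits of complex I, and Atp5g1 (0.41), one of the genes for the c ring of the ATP synthase, with adjusted p of 0.0492, 0.0444 and 0.0202. Ndufs1, Ndufv1, Uqcrc1, Cox4i2 and Ndufa1 passed in all 6 fits of β8ITG-cKO that left out a library, whereas each of the other 15 calls in β8ITG-cKO was lost in at least 1 of them.

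Ndufa1, a small membrane-arm subunit of complex I needed for its assembly (chromosome X, 37187588 to 37191238), fell most in β8ITG-cKO. It measured 78.2, 104 and 82.0 FPKM in β8ITG-cKO 0 h and 26.4, 34.5 and 39.1 FPKM in β8ITG-cKO 24 h. The times lay far apart, and the log2 change was −1.38 (SE 0.17, adjusted p = 0.000484). It was the only fall of the set that also passed with libraries summing to 1000000. In WT it had 57.5, 61.9 and 62.5 FPKM and then 42.9, 55.9 and 43.5 FPKM, a log2 change of −0.36 (SE 0.15, adjusted p = 0.112).

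The other falls in β8ITG-cKO were smaller. Accessory subunits of complex I made up 5 of them: Ndufc1 (−0.60, adjusted p = 0.0339), Ndufa6 (−0.55, adjusted p = 0.0302), Ndufa13 (−0.52, adjusted p = 0.0254), Ndufb11 (−0.49, adjusted p = 0.0284) and Ndufa3 (−0.41, adjusted p = 0.0246). In complex IV, Cox7a2l, a factor that joins complexes III and IV into supercomplexes, fell by 0.53 on the log2 scale (adjusted p = 0.0179), Cox4i1 by 0.42 (adjusted p = 0.0322) and Cox6c by 0.39 (adjusted p = 0.0418). In complex V, Atp5k and Atp5e, small subunits of the membrane part and the central stalk, fell by 0.39 (adjusted p = 0.0224) and 0.32 (adjusted p = 0.0427). Cox4i1 had 121, 94.5 and 119 FPKM in β8ITG-cKO 0 h and 77.3, 78.6 and 93.0 FPKM in β8ITG-cKO 24 h, with every library at 24 h lower. None of these 10 calls held with libraries summing to 1000000, where Atp5e turned to 0.03. Ndufc1 had a larger log2 change in WT, −0.89, that did not pass (SE 0.34, adjusted p = 0.0812).

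**Figure D2:**
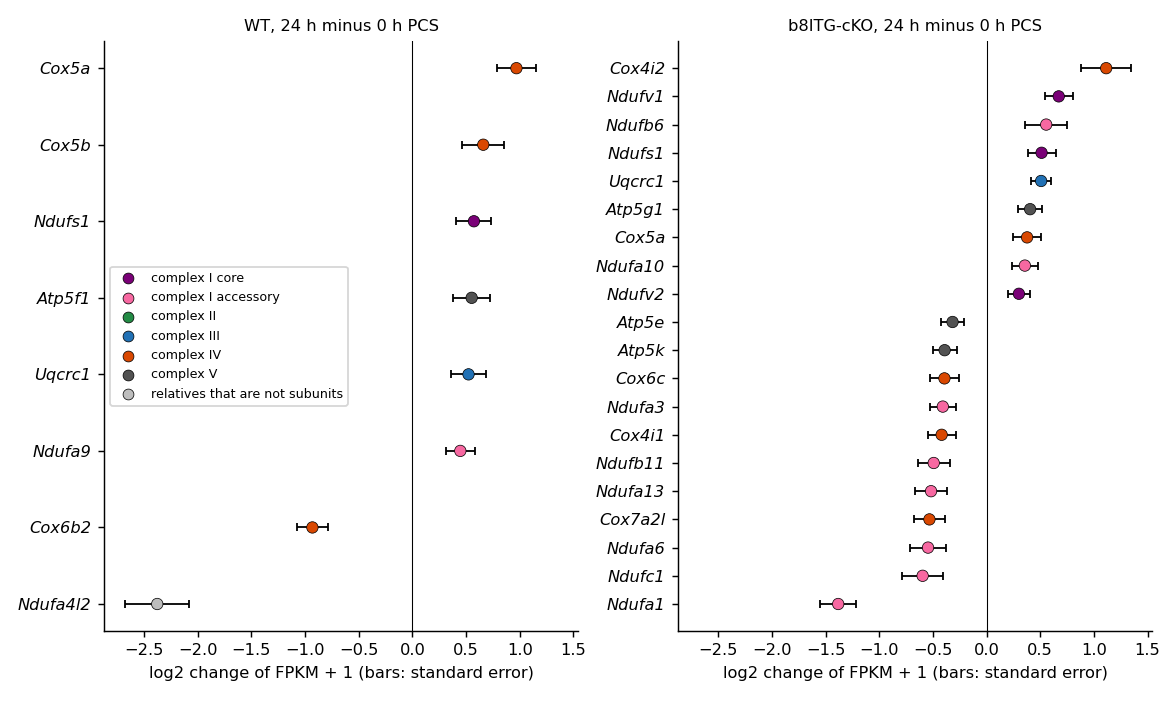
Log2 change of FPKM + 1 from 0 h to 24 h PCS (x axis, bars are the standard error) of the genes that passed in WT and in β8ITG-cKO. Of the 8 in WT, Cox5a (0.97) and Ndufa4l2 (−2.38) lie at the ends, and of the 20 in β8ITG-cKO, Cox4i2 (1.11) and Ndufa1 (−1.38). With every library summing to 1000000, Atp5e turned to 0.03 in β8ITG-cKO.

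Complex II, the only complex without mitochondrially coded subunits, had no gene that passed (limma), with 0 at an unadjusted p under 0.05 in WT and 1 in β8ITG-cKO over time. Sdha, its flavoprotein, had 36.8, 44.8 and 29.1 FPKM in WT 0 h, 38.6, 42.0 and 37.5 FPKM in WT 24 h, 36.1, 33.8 and 38.8 FPKM in β8ITG-cKO 0 h, and 36.3, 37.9 and 44.5 FPKM in β8ITG-cKO 24 h. All 4 groups overlapped. Its log2 changes over time were 0.11 in WT (adjusted p = 0.663) and 0.12 in β8ITG-cKO (adjusted p = 0.393). Sdhb, the iron-sulfur subunit, and the membrane anchors Sdhc and Sdhd changed by 0.20, 0.42 and 0.40 in WT and by 0.11, 0.07 and 0.21 in β8ITG-cKO. The central parts of the ATP synthase did not pass either. Atp5a1 and Atp5b, the subunits of its catalytic head, and Atp5c1, its central shaft, had log2 values of 0.16, 0.34 and 0.17 in WT and of 0.18, 0.20 and −0.04 in β8ITG-cKO.

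The changes over time in WT and in β8ITG-cKO come from separate libraries. Over the 80 genes tested in both, 38 had a log2 change above 0 in both genotypes and 21 below 0 in both, and Pearson's r was 0.57 and Spearman's rho 0.66, given as a description over genes that share libraries. Ndufs1, Uqcrc1 and Cox5a passed in both genotypes. Of the 6 fits without 1 library, Ndufs1 and Uqcrc1 passed in 1 each in WT, and Cox5a in 2 in β8ITG-cKO. Longer transcripts tended to have the higher change in β8ITG-cKO (Spearman's rho 0.37 over 80 genes) and less so in WT (0.19 over 79 genes), again as a description.

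**Figure D3:**
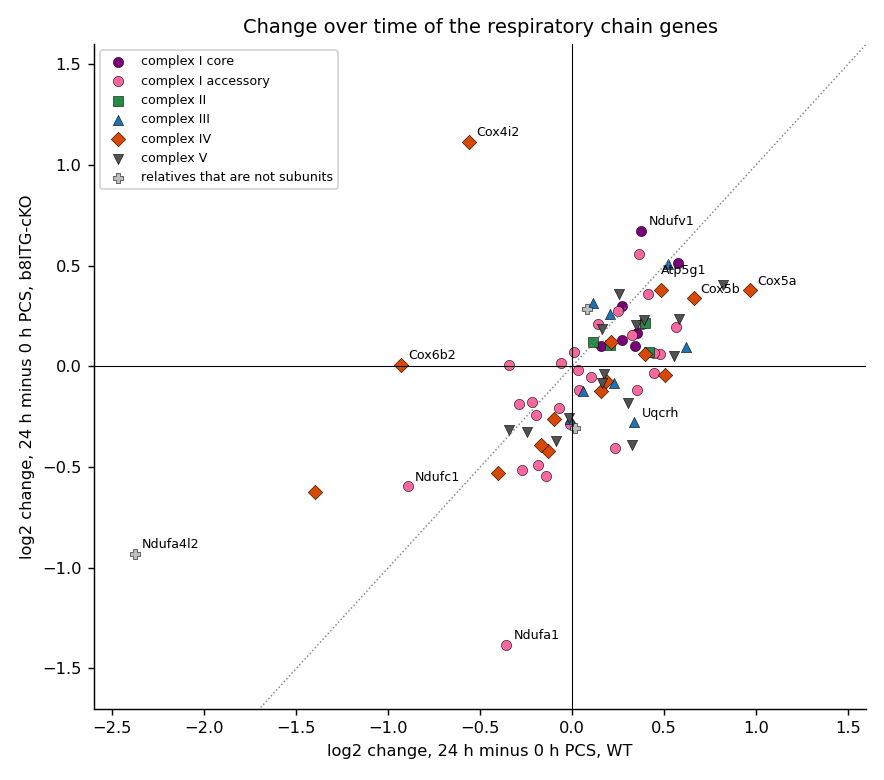
Log2 change from 0 h to 24 h PCS in WT (x axis) and in β8ITG-cKO (y axis), 1 point per gene, with shape and colour for the complex and a dotted line of equal change. Named genes passed a test and either changed by over 0.6 on the log2 scale in a genotype or passed the interaction. Most points lie near the line, while Ndufa1 (−0.36 and −1.38) lies far below it. Cox4i2 (−0.56 and 1.11), Ndufa4l2 (−2.38 and −0.93) and Cox6b2 (−0.93 and 0.01) lie far above it.

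Whether the change over time differed between the genotypes was tested with an interaction term over all 12 libraries. It passed for 2 of 81 genes, both negative, so that 0 were higher and 2 lower (2.47%), against 6.83% of all genes higher and 2.56% lower. At an unadjusted p under 0.05 there were 10 of the 81, without a share of all genes at that threshold. Without 1 library the number that passed ran from 0 to 5, the lowest when β8ITG-cKO 0 h replicate 2 was removed and the highest when WT 24 h replicate 3 was removed, and it was 1 without replicate 1 of WT 0 h, WT 24 h or β8ITG-cKO 24 h, replicate 3 of β8ITG-cKO 0 h or replicate 2 of β8ITG-cKO 24 h. Over all genes, 516 were higher and 172 lower of 15306 without β8ITG-cKO 0 h replicate 2. Without WT 24 h replicate 3, 1149 were higher and 772 lower of 15262. The median interaction was −0.17 over the members and 0.00 over all genes, with 59 of 81 values below 0, but it turned to 0.18 with libraries summing to 1000000, where the median of all genes was 0.30 and 2 members were higher and 0 lower. Of all 17158 genes tested in that setting, 2328 were higher and 100 lower. For Ndufa1 the log2 difference was −1.02 (SE 0.23, adjusted p = 0.0199), and it passed in 11 of 12 fits that left out a library, missing without β8ITG-cKO 0 h replicate 2 (adjusted p = 0.0542), and missed with libraries summing to 1000000 (−0.68, adjusted p = 0.131). Uqcrh, the hinge protein of complex III (chromosome 4, 116066965 to 116075070), had 70.8, 79.8 and 66.3 FPKM in WT 0 h and 99.1, 87.9 and 87.7 FPKM in WT 24 h. In β8ITG-cKO it had 85.0, 87.6 and 72.7 FPKM at 0 h and 60.5, 69.6 and 71.7 FPKM at 24 h. Every library moved above the 0 h range in WT and below it in β8ITG-cKO, with a log2 difference of −0.62 (SE 0.17, adjusted p = 0.0439), but the changes within each genotype (0.34 and −0.28) did not pass, and the interaction passed in only 2 of 12 fits without a library and missed with libraries summing to 1000000 (−0.27, adjusted p = 0.389).

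Ratios within a library do not depend on how libraries are scaled, so they were used to describe the balance of the chain. They were chosen after the values were seen and carry no test. The summed core subunits of complex I divided by the summed accessory subunits gave 0.139, 0.138 and 0.133 in WT 0 h, 0.171, 0.165 and 0.168 in WT 24 h, 0.128, 0.123 and 0.122 in β8ITG-cKO 0 h, and 0.172, 0.158 and 0.183 in β8ITG-cKO 24 h. In both genotypes all libraries at 24 h lay above all at 0 h. Cox5a divided by Cox4i1, subunits of the same complex, gave 0.142, 0.151 and 0.156 in WT 0 h, 0.314, 0.339 and 0.345 in WT 24 h, 0.154, 0.167 and 0.117 in β8ITG-cKO 0 h, and 0.248, 0.298 and 0.226 in β8ITG-cKO 24 h. This ratio was higher at 24 h in every library of both genotypes, and the WT 24 h libraries were all above the β8ITG-cKO 24 h libraries. Cox5b divided by Cox4i1 ran from 0.891 to 1.15 in WT 0 h and from 1.64 to 2.06 in WT 24 h, and from 0.754 to 0.911 and from 1.37 to 1.49 in β8ITG-cKO.

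**Figure D4:**
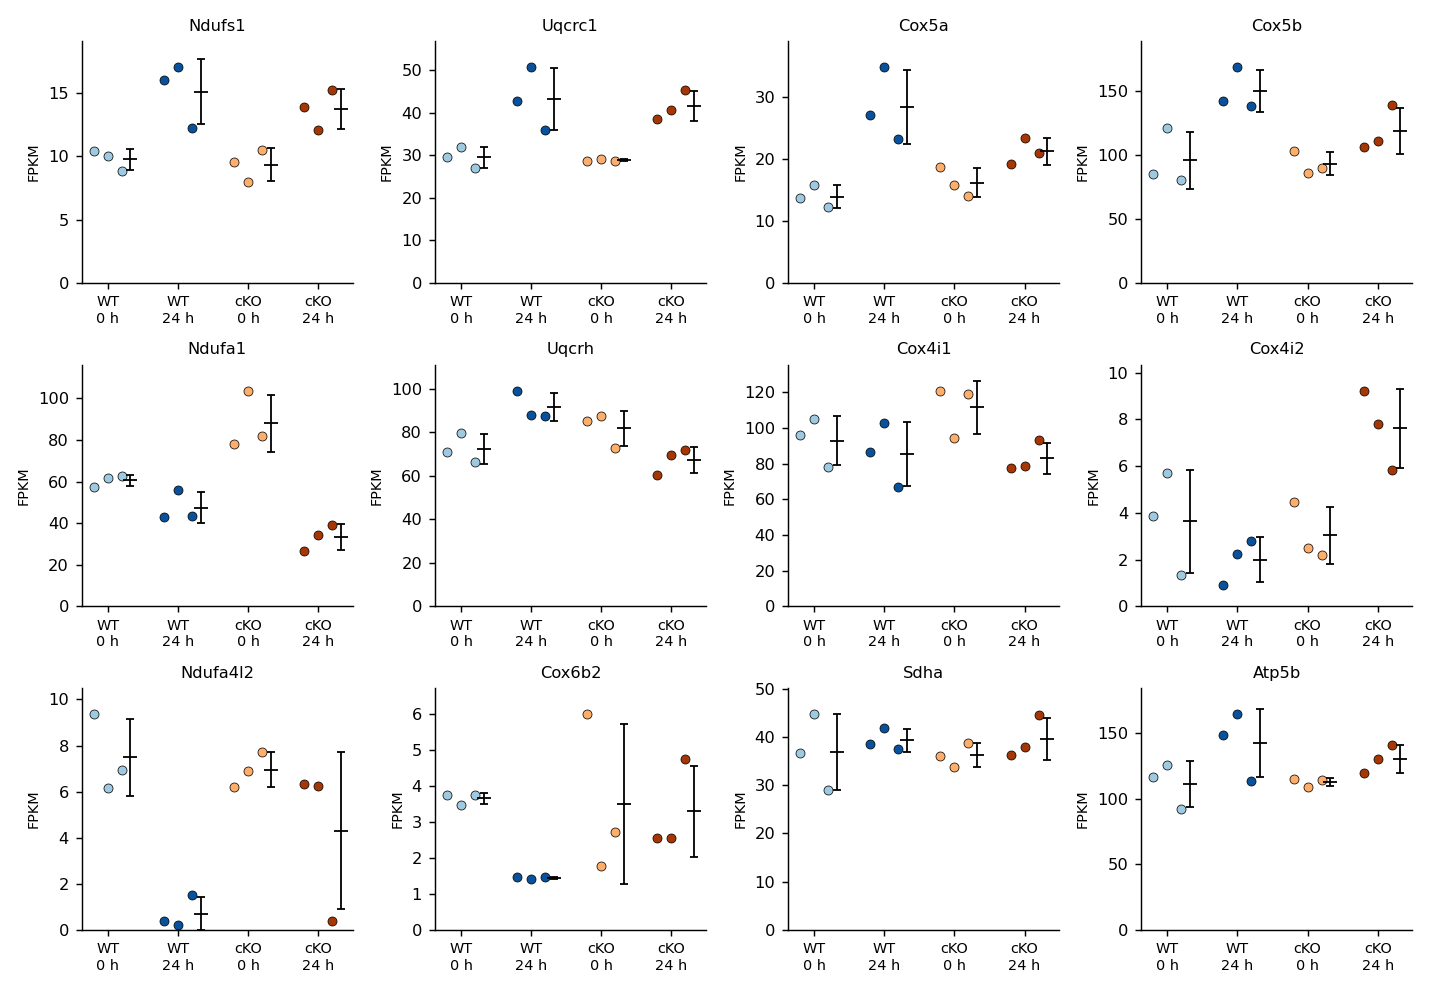
FPKM (y axis, from 0) of 12 genes of the chain in the 4 groups (x axis). Points are libraries, bars are the mean ± SD of 3 libraries, and cKO stands for β8ITG-cKO. Cox5a, Ndufs1 and Uqcrc1 are higher at 24 h in both genotypes as deposited, Ndufa1 drops in β8ITG-cKO from 78.2 or more to 39.1 FPKM or less, and Sdha overlaps in all groups.

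Between the genotypes at 24 h PCS, 1 of 80 genes was higher in β8ITG-cKO and 0 were lower (1.25%), against 5.64% of all genes higher and 0.644% lower. An unadjusted p under 0.05 was held by 6 of the 80, again without a share of all genes at that threshold. The median difference was −0.05 over the members and 0.03 over all genes. The gene was Cox4i2, the isoform of Cox4i1 known from lung and from adaptation to low oxygen (chromosome 2, 152753916 to 152765039). It measured 0.924, 2.22 and 2.81 FPKM in WT 24 h and 9.22, 7.80 and 5.85 FPKM in β8ITG-cKO 24 h, so all β8ITG-cKO libraries were above all WT libraries. The log2 difference was 1.57 (SE 0.28, adjusted p = 0.0170), and it alone among the 80 met the study's criteria, against 3.66% of all genes. It passed in 4 of 6 fits that left out a library, missing without β8ITG-cKO 24 h replicate 1 or replicate 2 (adjusted p of up to 0.0749). The number of members that passed was 0 without either of those libraries, 2 without β8ITG-cKO 24 h replicate 3 and 4 without WT 24 h replicate 3. Over all genes, 505 were higher and 34 lower of 15299 without β8ITG-cKO 24 h replicate 1, and 415 and 24 of 15282 without its replicate 2. Without WT 24 h replicate 3 they were 879 and 229 of 15396. With libraries at a common median, 1 member was higher and 1 lower, beside 770 and 226 of all 15092 genes.

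Between the genotypes at 0 h PCS, 1 of 81 genes was higher in β8ITG-cKO and 0 were lower (1.23%), against 4.18% and 2.75% of all genes. Without a share of all genes to set beside it, 9 of the 81 had an unadjusted p under 0.05. No member met the study's criteria, against 2.52% of all genes. Ndufa3, an accessory subunit of complex I, had 53.1, 60.1 and 51.9 FPKM in WT 0 h and 74.2, 76.8 and 85.9 FPKM in β8ITG-cKO 0 h. The genotypes did not overlap, with a log2 difference of 0.51 (SE 0.11, adjusted p = 0.0340), but the call held in 1 of 6 fits without a library, the one without WT 0 h replicate 2, in which 2 members passed, and 0 passed in the other 5 fits. Over all genes, 469 were higher and 287 lower of 14585 without WT 0 h replicate 2. Without β8ITG-cKO 0 h replicate 3 they were 80 and 56 of 14754. With libraries summing to 1000000, the split over the members became 0 higher and 13 lower and their median moved from 0.07 to −0.30, beside −0.29 over all genes. In that setting 233 of all 16439 genes were higher and 2500 lower, so the share of members that fell was near that of all genes.

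The tissue-restricted isoforms were low beside their common forms in every group. Of 8 such genes, Cox4i2, Cox6b2, Cox8b and Ndufa4l2 were tested in every comparison, and Cox7a1 in those where its mean reached 0.5 FPKM. Cox4i2 had 3.85, 5.70 and 1.33 FPKM in WT 0 h and 4.44, 2.47 and 2.21 FPKM in β8ITG-cKO 0 h. Over time it rose in β8ITG-cKO by 1.11 (SE 0.23, adjusted p = 0.00581), with a value of −0.56 in WT (adjusted p = 0.331), while the interaction, 1.68, did not pass (adjusted p = 0.0697). As a share of Cox4i1 and Cox4i2 together, it made up 1.68% to 5.16% in WT 0 h, 1.06% to 4.02% in WT 24 h, 1.82% to 3.55% in β8ITG-cKO 0 h and 5.92% to 10.7% in β8ITG-cKO 24 h. The β8ITG-cKO 24 h libraries lay above all others.

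Ndufa4l2 in β8ITG-cKO had 6.21, 6.91 and 7.72 FPKM at 0 h and 6.31, 6.24 and 0.360 FPKM at 24 h, so that a single library was as low as those of WT 24 h. Its change in β8ITG-cKO (−0.93, adjusted p = 0.236) and the interaction (1.45, adjusted p = 0.264) did not pass. As a share of Ndufa4 and Ndufa4l2 together it made up 14.4% to 29.2% in WT 0 h, 0.589% to 3.59% in WT 24 h, 19.4% to 22.4% in β8ITG-cKO 0 h and 1.03% to 16.6% in β8ITG-cKO 24 h. Cox8b, the muscle form of Cox8, had 5.94, 3.14 and 0.595 FPKM in WT 0 h and 0, 0 and 1.51 FPKM in WT 24 h, where a listed 0 can be a failed estimate, and it passed in no comparison. Cox7a1, the muscle form of Cox7a, was at most 2.43 FPKM and was listed at 0 in 6 libraries. Marker genes of striated muscle summed to 1.26 to 3.21 FPKM over 9 genes in all libraries.

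The 13 protein genes of mitochondrial DNA were far more abundant than the nuclear genes. Their summed FPKM was 17065, 19504 and 16932 in WT 0 h, 17702, 28797 and 32260 in WT 24 h, 15220, 17662 and 16059 in β8ITG-cKO 0 h, and 26821, 19589 and 26545 in β8ITG-cKO 24 h. Divided by the sum of the 84 nuclear genes, this gave 4.59, 4.74 and 5.61 in WT 0 h, 4.37, 6.42 and 10.2 in WT 24 h, 3.69, 4.86 and 4.04 in β8ITG-cKO 0 h, and 7.85, 5.58 and 6.88 in β8ITG-cKO 24 h. The ratio was higher at 24 h in every β8ITG-cKO library and overlapped between the times in WT. ATP6 and ATP8 made up a large part of it. Without these genes it ran from 2.67 to 3.28 in WT 0 h and from 2.47 to 5.85 in WT 24 h. In β8ITG-cKO it then ran from 2.18 to 2.95 at 0 h and from 3.36 to 4.61 at 24 h. In β8ITG-cKO, 8 of the 13 (61.5%, against 35.4% of all genes) rose by 24 h PCS (median 0.60), among them COX1, the catalytic subunit of complex IV, by 0.67 (SE 0.18, adjusted p = 0.0180) and ND3 of complex I by 0.89 (SE 0.17, adjusted p = 0.00379). That count was 1 with libraries at a common median, where 3217 of all 15155 genes rose. It was 13 with libraries summing to 1000000, where 9481 of all 16920 genes rose. It was 2, 5 and 1 without replicate 1, 2 or 3 of β8ITG-cKO 0 h and 4, 10 and 4 without replicate 1, 2 or 3 of β8ITG-cKO 24 h. Across these fits 4370 to 4907 of all genes rose. In WT 0 of the 13 passed, against 20.9% of all genes that rose, with a median of 0.51 and 2 at an unadjusted p under 0.05, and 7 passed without WT 24 h replicate 1. In that fit 2330 of all 15156 genes rose. All 13 values were above 0 in both genotypes, under each of the scalings run.

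**Figure D5:**
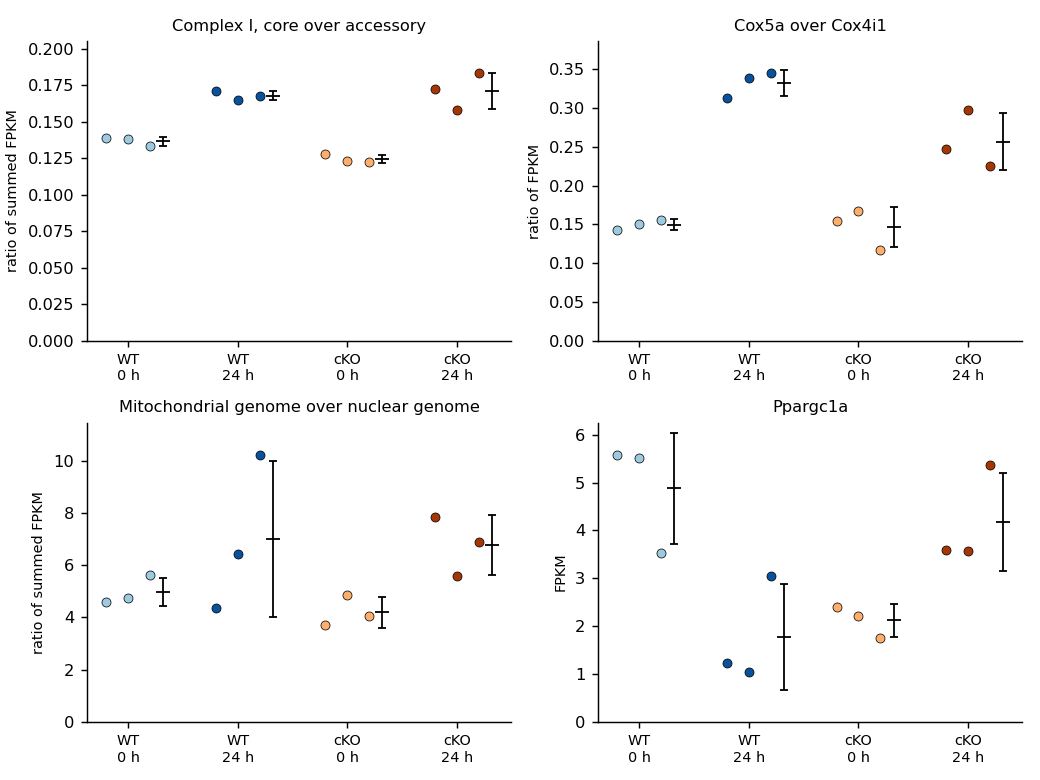
Within-library ratios and a regulator in the 4 groups (x axis). Panels give the complex I core sum divided by the accessory sum, Cox5a divided by Cox4i1, the mitochondrially coded sum divided by the nuclear sum, and Ppargc1a in FPKM (y axes). Points are libraries, bars are the mean ± SD of 3 libraries and cKO stands for β8ITG-cKO, and both subunit ratios are higher in every library at 24 h than at 0 h, while Ppargc1a is lower in WT and higher in β8ITG-cKO at 24 h.

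Genes that supply, build or regulate the chain were taken as lists from general knowledge. Their counts over time are read against all genes tested, of which 20.9% rose and 8.81% fell in WT and 35.4% rose and 10.7% fell in β8ITG-cKO. Among 13 complex I assembly factors tested, 4 (30.8%) rose and 0 fell in WT (median 0.54), and 5 (38.5%, near the share of all genes) rose and 0 fell in β8ITG-cKO (median 0.41). Timmdc1, which helps build the membrane arm, had 12.3, 15.1 and 11.2 FPKM in WT 0 h and 30.8, 33.3 and 21.6 FPKM in WT 24 h, with log2 changes of 1.08 in WT (adjusted p = 0.00657) and 0.65 in β8ITG-cKO (adjusted p = 0.00124). Of 31 assembly factors of the other complexes, 3 rose and 1 fell in WT and 3 rose and 2 fell in β8ITG-cKO, so that 9.68% rose in either genotype, below the share of all genes in both. Among them, Sco2, a copper chaperone of complex IV, rose by 1.02 in WT (adjusted p = 0.00447), and Uqcc2, an assembly factor of complex III, changed by −0.61 in β8ITG-cKO (adjusted p = 0.00235). Of 16 genes of pyruvate dehydrogenase and the citric acid cycle, which feed electrons to the chain, 5 (31.2%) rose and 1 fell in WT (median 0.42), and 9 (56.2%) rose and 1 fell in β8ITG-cKO (median 0.38), above the share of all genes that rose in each. Of 77 mitochondrial ribosomal proteins, which translate the mitochondrial messages, 23 (29.9%) rose and 0 fell in WT (median 0.50), and 24 (31.2%) rose and 3 fell in β8ITG-cKO (median 0.31), which lay above the share of all genes in WT and below it in β8ITG-cKO. In β8ITG-cKO with libraries at a common median, the split of the ribosomal proteins turned to 7 higher and 15 lower, beside 3217 and 3008 of all 15155 genes. Cycs, the cytochrome c that carries electrons from complex III to complex IV and lies outside the name pattern, had 5.90, 5.63 and 4.97 FPKM in WT 0 h and 12.7, 13.1 and 9.02 FPKM in WT 24 h, with log2 changes of 0.94 in WT (adjusted p = 0.00686) and 0.73 in β8ITG-cKO (adjusted p = 0.00139). Cyc1, the cytochrome of complex III, changed by 0.54 in WT (adjusted p = 0.0860) and 0.56 in β8ITG-cKO (adjusted p = 0.00380).

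Among 11 regulators of mitochondrial biogenesis, 4 (36.4%) rose and 1 fell in WT, and 6 (54.5%) rose and 1 fell in β8ITG-cKO, against 20.9% and 35.4% of all genes that rose. Ppargc1a, which codes for the coactivator PGC-1α, had 5.58, 5.51 and 3.54 FPKM in WT 0 h and 1.24, 1.04 and 3.05 FPKM in WT 24 h. In β8ITG-cKO it had 2.41, 2.203 and 1.74 FPKM at 0 h and 3.60, 3.56 and 5.37 FPKM at 24 h. It fell in WT (−1.13, SE 0.29, adjusted p = 0.0236), rose in β8ITG-cKO (0.72, SE 0.17, adjusted p = 0.00969) and was lower in β8ITG-cKO at 0 h (−0.90, SE 0.18, adjusted p = 0.0290). The interaction was 1.85 (SE 0.36, adjusted p = 0.0111) and ran from 1.66 to 2.46 over all other settings, with adjusted p of at most 0.0324, whereas the adjusted p reached 0.0832 for the fall in WT and 0.114 for the difference at 0 h. All 18 photoreceptor markers, described below, were also positive in this interaction, and their part in the Ppargc1a values was not tested. The related coactivator Pprc1 rose in both genotypes, by 1.06 (adjusted p = 0.0120) and 0.80 (adjusted p = 0.00116), and so did Polg, the mitochondrial DNA polymerase, by 0.68 (adjusted p = 0.0283, up to 0.0969 over the other settings) and 0.81 (adjusted p = 0.00609). Tfb1m, which modifies mitochondrial ribosomal RNA, rose in WT by 0.97 (adjusted p = 0.0125) with a value of −0.10 in β8ITG-cKO, and its interaction was −1.07 (adjusted p = 0.0299, up to 0.0665 over the other settings). Esrra, the nuclear receptor that works with PGC-1α, changed by 0.41 in WT (adjusted p = 0.163) and fell by 0.37 in β8ITG-cKO (adjusted p = 0.0321), a call that was lost under some of the other settings, over which the value ran from −0.60 to −0.13 and the adjusted p up to 0.415.

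Of 9 carriers and pores of the mitochondrial membranes, 2 (22.2%) rose and 0 fell in WT, and 3 (33.3%) rose and 0 fell in β8ITG-cKO, near the 20.9% and 35.4% of all genes. Of 8 genes of mitophagy, the removal of mitochondria, 1 rose and 3 fell in WT, and 2 rose and 3 fell in β8ITG-cKO, so that 37.5% fell in either genotype, against 8.81% and 10.7% of all genes. Bnip3l, a mitophagy receptor, fell in both genotypes, with log2 changes of −1.11 (adjusted p = 0.00227) and −1.09 (adjusted p = 0.000217). Pink1, the kinase that marks damaged mitochondria, changed by −1.37 (adjusted p = 0.00490) and −0.42 (adjusted p = 0.0466), and its interaction of 0.95 did not pass (adjusted p = 0.0665). Bnip3, a hypoxia-inducible mitophagy receptor, had 15.8, 18.5 and 14.9 FPKM in WT 0 h, 8.04, 6.98 and 5.80 FPKM in WT 24 h, 15.7, 16.3 and 17.4 FPKM in β8ITG-cKO 0 h, and 40.2, 22.7 and 12.3 FPKM in β8ITG-cKO 24 h. Its interaction was 1.57 (adjusted p = 0.0401), with β8ITG-cKO 24 h libraries spread widely.

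Marker RNA of several cell types also differed between the groups. Summed over 12 markers, lens fiber RNA was 2357 to 2670 FPKM in WT 0 h and 2574 to 2878 FPKM in β8ITG-cKO 0 h, and 292 to 532 and 386 to 429 FPKM at 24 h. Of the 11 fiber markers tested over time, all fell in both genotypes. Neutrophil markers summed to at most 1.41 FPKM over 7 genes at 0 h, to 45.5 to 64.8 FPKM in WT 24 h and to 12.1 to 35.0 FPKM in β8ITG-cKO 24 h, with Ly6g at 0 in every library, and macrophage markers rose from at most 15.0 FPKM over 8 genes to between 39.1 and 61.5 FPKM. Photoreceptor markers, 18 genes, summed to 193 to 1584 FPKM in WT 0 h, 103 to 193 FPKM in WT 24 h, 250 to 464 FPKM in β8ITG-cKO 0 h and 1152 to 1375 FPKM in β8ITG-cKO 24 h, and all 18 were higher in β8ITG-cKO at 24 h, in β8ITG-cKO over time and in the interaction. Red blood cell markers, 5 genes, summed to 68.0 to 153 FPKM in WT 0 h, 36.0 to 220 FPKM in WT 24 h, 6.52 to 15.8 FPKM in β8ITG-cKO 0 h and 87.4 to 195 FPKM in β8ITG-cKO 24 h. All 5 were lower in β8ITG-cKO at 0 h and rose in β8ITG-cKO over time, and 2 passed in the interaction. The 8 genes listed for lens epithelium, which include the crystallins Cryaa and Cryab, summed to 13530 to 40337 FPKM in WT 0 h and 17936 to 21586 FPKM in WT 24 h. In β8ITG-cKO they summed to 40325 to 43086 FPKM at 0 h and 11569 to 14033 FPKM at 24 h. Of these genes 3 fell in WT and 5 in β8ITG-cKO over time, with 1 rising in each. The part of the crystallins in this sum is not given, so it need not follow the amount of epithelium. Corneal epithelium markers, 4 genes, summed to 208 to 269 FPKM in WT 0 h, 152 to 401 FPKM in WT 24 h, 536 to 911 FPKM in β8ITG-cKO 0 h and 139 to 190 FPKM in β8ITG-cKO 24 h. The β8ITG-cKO 0 h libraries thus lay below all others in red blood cell markers and above all others in corneal markers. Iris and ciliary pigment markers, 5 genes, summed to between 11.5 and 83.8 FPKM in all libraries. In β8ITG-cKO 24 h, where the photoreceptor markers were high in every library, Cox4i2 was highest and Ndufa1 lowest. WT 0 h replicate 2, at 1584 FPKM of these markers, had 5.70 FPKM of Cox4i2, near the 5.85 FPKM of β8ITG-cKO 24 h replicate 3. Its Ndufa1, 61.9 FPKM, lay within the 57.5 to 62.5 FPKM of WT 0 h. The part of these cell types in the changes of the respiratory chain genes, and of the genes that supply, build or regulate the chain, was not tested.

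Reads of neighbouring genes are a further limit. Of the 84 genes, 29 share exon bases with another gene, mostly on the opposite strand, among them Cox5a, Ndufs1, Ndufa9, Atp5f1, Ndufa4l2, Ndufa3, Ndufa13, Ndufb11, Ndufb6, Cox4i1 and Cox6c. The library kit keeps the strand, but whether the counting used it is not given in the sources used here, so reads of such partners cannot be told apart from theirs.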

How the data were processed

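RNA of 12 mouse LC pools, 3 per group, was measured by stranded total RNA sequencing. The authors deposited FPKM per library and gene from Cuffdiff, in 4 tables of 2 groups each. The submitters' processing notes name FastQC, cutadapt 1.12, TopHat2 2.1.0, Cuffdiff 2.2.1 and the builds mm10 and GRCm38.p5. Columns with the authors' group values, fold changes and p and q values were not used. A library's FPKM was identical in each table that held it. No counting error is given, as the tables hold FPKM alone.

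FPKM were fitted as log2(FPKM + 1) with limma 3.58.1 (trend, eBayes) in R 4.3.3, keeping genes whose mean over the fitted libraries reached 0.5 FPKM, with Benjamini-Hochberg adjustment over all of them. Fold changes on this scale understate changes of low genes. A gene passed at an adjusted p of at most 0.05. Counts at an unadjusted p under 0.05 have no share of all genes beside them, so they are not read as more or fewer than the background. The interaction used all 12 libraries. Fits were tested on simulated data. The rest used Python 3.11.15, matplotlib 3.10.9, scipy 1.17.1, numpy 2.4.6 and pandas 2.3.3. Positions and promoters are from RefSeq (GRCm38.p6), in which all 84 genes were found at the files' loci. Transcript lengths and shared exon bases are from GENCODE.

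The genes, lists and tests were chosen with earlier results of these data known. Named genes are, per comparison, up to 5 rises and 5 falls among those that passed, listed catalytic and core subunits (with Atp5c1), the tissue-restricted isoforms, and the 3 highest and 3 lowest means. Others were named after their values were seen, and the values of some single genes are left out here. Alternatives were a pseudocount of 0.1 FPKM, no filter on low values, rescaling to a common median or to a sum of 1000000, each library left out, a block for the replicate number and 1 fit for all groups. Rescaling to the median of the 84 genes was added after seeing the data. Libraries with the same replicate number did not deviate together (correlations of −0.218 to 0.0820), so numbers were not taken as pairs.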

Additional observations from a re-analysis of the deposited data

Results flagged for a closer look

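The change over time of Ndufa1 differed between the genotypes by the interaction term, with a log2 difference of −1.02 (SE 0.23, adjusted p = 0.0199, limma): all β8ITG-cKO libraries fell to 39.1 FPKM or less from 78.2 FPKM or more, while WT went from 57.5 FPKM or more to 55.9 FPKM or less. The change over time of Uqcrh differed by −0.62 (SE 0.17, adjusted p = 0.0439). Every WT library was higher and every β8ITG-cKO library lower at 24 h, but the Uqcrh change within each genotype did not pass. Of 12 fits that each left out a library, the Uqcrh interaction passed in 2 and that of Ndufa1 in 11. Neither passed with libraries rescaled to a common sum. Of 81 genes tested, these 2 were lower (2.47%), near the 2.56% of all genes that were lower. Photoreceptor markers also passed this interaction, and their part in these results was not tested.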

How the results depend on the processing

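With 8 WT and 20 β8ITG-cKO members passing over time, no filter on low values gave 4 and 9, 1 fit over all libraries 20 and 10, and a sum of 1000000 4 and 45. The calls over all genes in β8ITG-cKO moved as well, to 9481 higher and 1013 lower of 16920 at that sum. With no filter the calls over all genes were 2344 higher and 1196 lower of 28774 in WT, and 5373 and 1467 of 28746 in β8ITG-cKO. With 1 fit they were 4292 and 1962 of 15262 in WT, and 4566 and 1410 in β8ITG-cKO. A common median gave 33 passing members in β8ITG-cKO, and turned the members' median log2 change to −0.0802 in WT and −0.27 in β8ITG-cKO. A sum of 1000000 moved the β8ITG-cKO median to 0.35 and turned Atp5e to 0.0257, while a common median of the 84 genes turned the β8ITG-cKO median to −0.10. Leaving out each library gave 3 to 13 passing members in WT and 6 to 15 in β8ITG-cKO. The calls over all genes moved too, in WT from 1817 higher and 695 lower (without WT 0 h replicate 1) to 3737 and 1350 (without WT 24 h replicate 3). Between genotypes at 24 h (1 passed), no filter gave 0 (7 at an unadjusted p under 0.05), either common median 2, 1 fit over all libraries 3, and leaving out each library 0 to 4. At 0 h (1 passed), no filter and 1 fit gave 0 (8 and 6 unadjusted), a common median 2, and leaving out each library 0 to 2. Over all genes, no filter gave 161 higher and 93 lower of 28281, and 1 fit 469 and 351 of 15262. A sum of 1000000 gave 13 members, all lower, with a median of −0.30, beside 2500 lower of all 16439 genes. For the interaction (2 passed), no filter gave 1, a common median 5, leaving out each library 0 to 5, and a sum of 1000000 turned the median to 0.18. Over all genes, no filter gave 947 higher and 264 lower of 30824, and a common median 1098 and 650 of 15269. The cause of these shifts was not tested. With 3 libraries a group and no read counts, changes of low genes could be missed.

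The replicate number as a block gave 13 passing members in WT over time, 0 at 24 h (7 at an unadjusted p under 0.05, Cox4i2 at an adjusted p of 0.0577), 0 at 0 h (4 unadjusted) and 1 in the interaction. Over all genes the block gave 3106 higher and 1198 lower of 15146 in WT over time, and 601 and 43 of 15366 at 24 h. At 0 h it gave 138 and 131 of 14708, and in the interaction 771 and 253 of 15262. The numbers do not pair the libraries, so calls lost under the block are not read as weaker effects.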
